A study of Rattus norvegicus with 6 samples.

Results

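Transcripts that mark liver cells and the epithelium of the gut were followed in the mesenterial fat of newborn rats. The set comprised 33 genes, 17 of the liver and 16 of the gut lining, and its members were chosen by what they mark and by their signals on these same arrays in earlier work. A probe set was used only where the array's annotation gave it exactly 1 symbol. By this rule 32 of the 33 genes had a probe set, out of 14217 genes named on the array. The missing member was Tf, the transferrin gene, whose probe sets carry several symbols. The 32 genes were read by 39 probe sets. That earlier work had shown both kinds of marker high on the same array, so the levels by array are given here as a description and without a test.

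The samples were 6 arrays of total RNA from wild-type Sprague-Dawley rats, an outbred laboratory strain, all newborn. In the adequate group (3 arrays) the mothers' diet held vitamin D at 1000 IU per kg, and in the deficient group (3 arrays) it held 0 IU per kg. Litter, sex and dissection are not in the labels, nor is it stated that each array came from its own animal or litter. The spread behind a p-value may therefore be technical. Values are MAS5 signals, in linear intensity units after scaling each array to a common level. A signal of 88.2, the 40th percentile of the probe sets' mean log2 signal, was the lower limit for testing. Dim signals of this kind vary strongly, and no ratio is given where its lower side lies under that limit. Signals of different probe sets cannot be set against each other, so values are compared between arrays, for a single probe set or for a sum over a fixed list, in which the brightest probe sets weigh most.

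The liver parenchyma secretes most plasma proteins, among them albumin, the fibrinogen chains and the apolipoproteins, and it carries out the urea cycle. The gut lining is a single epithelial sheet held together by cadherins and claudins, with absorptive enterocytes, mucus-secreting goblet cells and hormone cells. Fat cells, vessels, nerves and mesothelium, the normal contents of a mesentery, make little of most of these transcripts, and the mesentery lies against the bowel. Some members are less specific: haptoglobin (Hp) is also made by fat cells, the aminopeptidase Anpep by fibroblast-like cells, and Apoa1, Apob, Fabp1 and Cps1 by both enterocytes and hepatocytes.

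Hepatocytes and enterocytes are known to share some transcription factors, and the promoters of members were searched for short motifs. The RefSeq promoter table (assembly GRCr8, from 250 bases before to 50 after the annotated start) matched 24 members by gene identifier, 11 of the liver and 13 of the gut. Short motifs of 3 kinds were searched on both strands: GTTAAT, the core of the site of the hepatic factor HNF1, CAAAGTC, the core of the HNF4 site, and TTTATG, the core of the site of the intestinal CDX factors. The promoters below were picked for display and each holds a match, whereas those of Epcam, Fgg, Ttr, Muc13 and Cldn7, among others, hold none. Every match to any of these motifs is in capitals and the rest in lower case, 5′ to 3′ on the gene's strand.
Alb, chr14:17906930-17907229, minus strand: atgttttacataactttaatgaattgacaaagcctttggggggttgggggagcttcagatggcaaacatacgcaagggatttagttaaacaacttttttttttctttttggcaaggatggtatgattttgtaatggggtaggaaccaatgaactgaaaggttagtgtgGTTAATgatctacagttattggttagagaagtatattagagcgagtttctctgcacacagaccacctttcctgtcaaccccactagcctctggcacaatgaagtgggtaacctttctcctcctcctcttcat
Afp, chr14:17875596-17875895, minus strand: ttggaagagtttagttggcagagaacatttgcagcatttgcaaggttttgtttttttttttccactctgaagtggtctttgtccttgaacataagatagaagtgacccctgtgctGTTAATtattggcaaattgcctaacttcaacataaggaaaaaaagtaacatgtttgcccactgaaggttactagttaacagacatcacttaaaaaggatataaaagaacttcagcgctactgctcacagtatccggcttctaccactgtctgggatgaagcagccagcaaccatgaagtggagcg
Cps1, chr9:76063613-76063912, plus strand: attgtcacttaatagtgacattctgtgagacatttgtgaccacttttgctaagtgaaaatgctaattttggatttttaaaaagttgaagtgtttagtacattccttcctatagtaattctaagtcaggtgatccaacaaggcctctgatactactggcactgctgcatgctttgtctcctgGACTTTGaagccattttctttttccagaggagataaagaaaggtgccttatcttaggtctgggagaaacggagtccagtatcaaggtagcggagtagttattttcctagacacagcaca
Lgals4, chr1:93252035-93252334, plus strand: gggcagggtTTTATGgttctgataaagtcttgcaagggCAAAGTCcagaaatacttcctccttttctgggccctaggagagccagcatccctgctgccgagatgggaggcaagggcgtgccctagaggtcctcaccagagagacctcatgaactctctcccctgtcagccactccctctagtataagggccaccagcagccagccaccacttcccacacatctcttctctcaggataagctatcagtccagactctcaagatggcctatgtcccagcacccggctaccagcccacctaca
Fabp1, chr4:104749090-104749389, plus strand: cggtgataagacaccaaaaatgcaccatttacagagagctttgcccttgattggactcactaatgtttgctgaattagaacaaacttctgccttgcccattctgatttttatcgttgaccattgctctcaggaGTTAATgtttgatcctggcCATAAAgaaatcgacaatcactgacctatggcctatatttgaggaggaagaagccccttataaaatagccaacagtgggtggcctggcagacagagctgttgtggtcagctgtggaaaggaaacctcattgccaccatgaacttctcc

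Albumin and alpha-fetoprotein, neighbours on chromosome 14, each held 1 HNF1 core. The HNF1 core was in 4 of the 11 liver promoters (Alb, Afp, Fga, Fgb) and 3 of the 13 gut promoters (Fabp1, Anpep, Cdx2), against 7.45% of the 33469 promoters in the table. The HNF4 core was in the liver promoters of Ahsg and Cps1 and the gut promoter of Lgals4, against 4.61% of all. The CDX core was in Fabp1, Lgals4 and the liver gene Serpina1, against 12.7% of all, so its share among the 24 members was near the background. Fabp1 and Lgals4 thus each held motifs of 2 kinds. A match describes letters in a window of 300 bases and no binding was measured.

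Across the members, adequate array 3 read highest. Among the 17 genes bright enough to test it was the highest for 16, where it was the highest for 16.3% of tested probe sets. The members were chosen in part on these signals, and Lgals4, Cdh1, Cdh17 and Apoa1 passed the filter only with this array, so these counts are a description. Over all measured members it was the highest of the 6 arrays for 15 of the 16 measured liver genes and 13 of the 16 gut genes, a total of 28 of 32, where it was the highest for 14.6% of all 31042 probe sets. For 19 of the 32, it exceeded the next array by over 1 log2 unit, a factor of 2, against 0.705% of all probe sets. The map of log2 signals shows this as a single column of high values in the adequate group. The exceptions were Apob (by its leading probe set), Fabp1, Cdx1 and Chga.

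**Figure D1:**
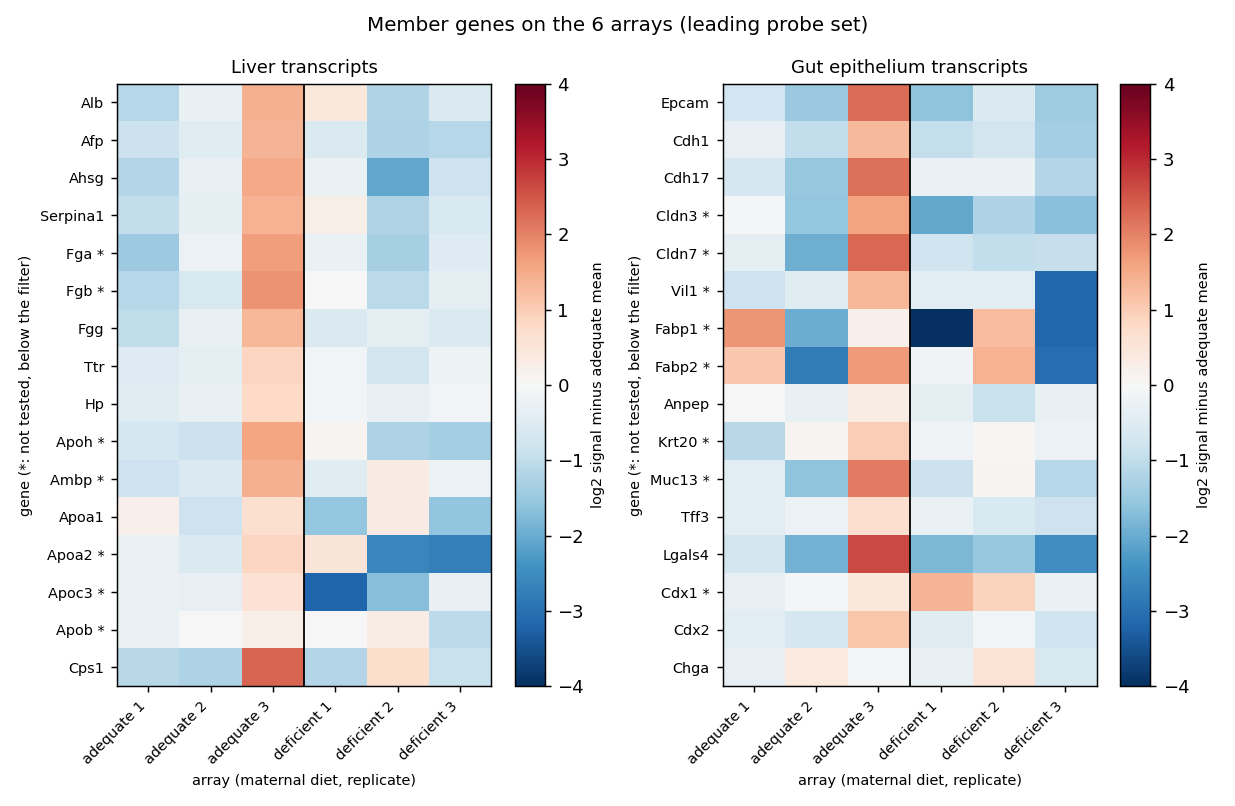
Log2 signal of each member's leading probe set minus the mean of the 3 adequate arrays (colour, log2 units), for 16 liver and 16 gut genes in rows and the 6 arrays in columns, with the diets parted by a line. Asterisks mark the 15 genes too dim to test; adequate array 3 is the highest column for 28 of the 32 genes.

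Among the secreted liver proteins, albumin (Alb), the main carrier protein of plasma, read 676, 1199 and 3958 on adequate arrays 1, 2 and 3 and 1964, 643 and 995 on deficient arrays 1, 2 and 3. Its other probe set read 196, 253 and 1579, then 258, 127 and 231. Both probe sets put adequate array 3 on top, but only the first placed deficient array 1 well above the other deficient arrays. Alpha-fetoprotein (Afp), the fetal counterpart of albumin, read 168, 222 and 785 on the adequate and 204, 131 and 139 on the deficient arrays. Adequate array 3 was 3.54 times the next array for Afp, and the remaining 5 arrays lay within a factor of 1.69 of each other. The fetuin gene Ahsg read 93.7, 167 and 596, then 176, 49.95 and 118. For the protease inhibitor Serpina1 the values were 71.7, 108 and 369, then 167, 61.2 and 93.8. Both genes had deficient array 1 as the second highest array and deficient array 2 as the lowest.

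Fibrinogen, the clotting protein, is built from chains encoded by Fga, Fgb and Fgg, which lie close together on chromosome 2 in GRCr8. Fgg read 80.2, 132 and 410.4 on the adequate and 108, 128 and 110 on the deficient arrays. Fga read 29.9, 70.0 and 262, then 68.6, 32.6 and 57.1, and Fgb read 29.5, 41.3 and 225, then 63.7, 31.1 and 50.8. For all 3 chains adequate array 3 stood above the limit of 88.2, while for Fga and Fgb the other 5 arrays stood below it. The further probe sets of Fga (at most 77.4) and Fgb (at most 25.6 and 22.8) stayed under the limit on every array. Apoh, a phospholipid-binding plasma protein, read 70.2, 62.8 and 340.4, then 123, 48.9 and 44.7. Ambp, the precursor of an inhibitor light chain and a carrier protein, read 26.1, 31.1 and 127, then 33.8, 59.0 and 39.7.

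The thyroxine carrier Ttr and haptoglobin showed the same array on top by less. Ttr read 141, 156 and 363 on the adequate and 184, 121 and 175 on the deficient arrays. Hp read 129, 149 and 314, then 170.4, 145 and 167. On adequate array 3 they were 1.97 and 1.84 times the next array, and over the other 5 arrays they spanned factors of 1.52 and 1.32.

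Among gut lining genes the galectin gene gave the largest step. Lgals4, a galectin of the intestinal brush border, read 128, 57.3 and 1347 on the adequate and 61.4, 75.2 and 38.0 on the deficient arrays. Adequate array 3 was 10.6 times the next array, the largest such gap of any of the 3031 tested probe sets that were highest on this array. The set was chosen in part on these signals and Lgals4 passed the filter only with this array, so its rank is a description. Epcam, an epithelial adhesion protein, read 207, 126 and 1639, then 115, 237 and 132, which put adequate array 3 at 6.93 times the next array. The intestinal cadherin Cdh17 read 87.4, 49.6 and 643, then 118, 118 and 62.6, or 5.44 times the next array. For these 3 genes the other 5 arrays did not separate by diet, and both groups overlapped. The general epithelial cadherin Cdh1 read 121, 76.5 and 370.1, then 77.5, 89.8 and 58.2. Its second probe set was at most 7.65 on any array.

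The tight junction claudins were dim on all but 1 array. Cldn7 read 49.7, 16.6 and 316 on the adequate and 37.1, 32.5 and 33.8 on the deficient arrays. Cldn3 read 46.4, 16.5 and 148, then 11.7, 20.6 and 15.2. The actin-bundling protein villin (Vil1) read 48.5, 60.4 and 213, then 62.8, 63.4 and 9.64. The membrane mucin Muc13 read 50.2, 22.6 and 289, then 38.2, 74.0 and 31.5, and the keratin Krt20 read 27.3, 63.3 and 117, then 53.4, 60.5 and 49.7. For each of these 5 genes adequate array 3 was the only array above 88.2.

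Cdx2, a homeobox factor that specifies intestine, read 97.8, 82.7 and 283 on the adequate and 94.4, 121 and 75.4 on the deficient arrays. Its relative Cdx1 had 28.8, 34.3 and 48.0, then 92.2, 66.6 and 30.1, so that deficient array 1 was highest. The goblet cell peptide Tff3 read 272, 308 and 583, then 301, 240.0 and 207. Chga, the granin of hormone cells, did not follow the others, with 117, 195 and 141 on the adequate and 120.3, 216 and 95.2 on the deficient arrays. Anpep was bright on every array, at 712, 572 and 859, then 538, 378 and 575, with adequate array 3 at 1.21 times the next array.

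The same gap was counted over all genes, as a description. Of the 18625 probe sets bright enough to test, 20 were highest on adequate array 3 by over 1 log2 unit (0.107%), and 12 of those 20 belonged to 11 member genes: Alb (both probe sets), Afp, Ahsg, Serpina1, Fgg, Cps1, Epcam, Cdh1, Cdh17, Lgals4 and Cdx2. The same count was 4 on adequate array 1 (0.0215%) and 0 on adequate array 2. It was 9 on deficient array 1 (0.0483%), 11 on deficient array 2 (0.0591%) and 2 on deficient array 3 (0.0107%). Members made up 0 of the probe sets on each of these 5 arrays. The members were chosen in part on these signals, and Lgals4, Cdh1 and Cdh17 passed the filter only with adequate array 3. The share of members in these counts is therefore no support for the pattern. The other 8 of the 20 on adequate array 3 were 2 probe sets with no single gene name and Ly6al, Meltf, Mamdc4, Apoc2, Agr2 and Cyp4f6. Meltf, a transferrin relative, read 89.0, 79.5 and 841 on the adequate and 20.0, 188 and 40.4 on the deficient arrays. Mamdc4, an endocytic membrane protein of the suckling intestine, read 91.5, 82.0 and 690.4, then 122, 156 and 60.4. Agr2, a chaperone of mucus cells, read 206, 192 and 556, then 233, 216 and 174. The next named genes in that order, each under 1 log2 unit, were Ccn1, Cirbp, Cela1 and Eps8l2.

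**Figure D2:**
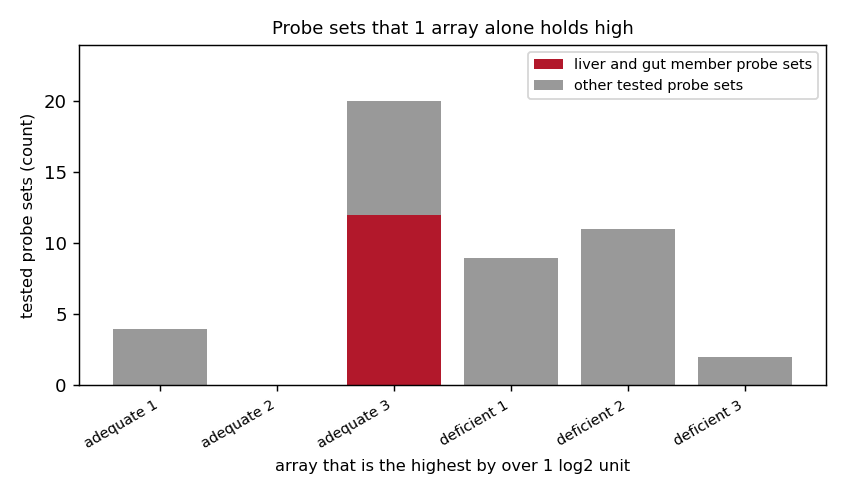
Number of tested probe sets (vertical axis) for which the array on the horizontal axis was the highest of the 6 by over 1 log2 unit, with members in red and all others in grey. Adequate array 3 has 20, of which 12 are members, and the other arrays have between 0 and 11, with no member among them. Members were chosen in part on these signals, so the counts are a description.

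Further markers of both tissues were listed beside the members. Of 29 measured gut epithelium genes outside the set, 19 were highest on adequate array 3, and 9 of these by over 1 log2 unit. Of 39 measured hepatocyte genes outside it, 15 were, and 7 by that margin. The shares among all probe sets were again 14.6% and 0.705%. Most of these genes were too dim to test. Of the 9 gut genes bright enough, 5 were highest on adequate array 3, and 1 by over 1 log2 unit. Of the 7 hepatocyte genes bright enough, 2 were, and 1 by that margin. The shares among tested probe sets were 16.3% and 0.107%. The lists were drawn up with earlier results of these data known, so the counts are a description. The urea cycle enzyme Otc, which hepatocytes and newborn enterocytes both make, read 102 on adequate array 3 and between 2.31 and 3.51 on the others. Itih3, a plasma inhibitor heavy chain, read 252 on that array and at most 53.3 elsewhere, and Hnf4a, a transcription factor of liver and gut, read 119 and at most 32.3. Hepatocyte genes that were bright on every array did not follow: Fah and Hpd, enzymes of tyrosine breakdown, read highest on adequate array 1, as did the retinol carrier Rbp4, and Arg1, the last urea cycle enzyme, on deficient array 2. Tat, an adult liver enzyme, stayed at or below 3.36 on all 6 arrays.

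A further order of arrays was seen in some genes of lipid transport. Apob, the structural protein of chylomicrons, read 107, 18.3 and 431 on the adequate and 1.71, 108 and 5.94 on the deficient arrays by its second probe set, whereas its leading probe set was flat and dim (21.4 to 53.8). Apoa1, of high density lipoprotein, read 150.0, 72.7 and 204, then 45.1, 162 and 43.5. The liver and gut fatty acid carrier Fabp1 read 175, 13.1 and 59.8, then 2.31, 122 and 5.78. The gut carrier Fabp2 read 70.3, 4.76 and 107, then 29.7, 86.2 and 3.99. In these 4 genes adequate arrays 1 and 3 and deficient array 2 were the highest 3 arrays.

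That order of arrays was shared by 8 of the 16 leading gut probe sets (Epcam, Cdh1, Cldn3, Fabp1, Fabp2, Muc13, Lgals4 and Cdx2) and by 1 of the 16 leading liver probe sets (Apoa1), and occurred in 2.4% of all 31042 probe sets. It was picked out after the values were seen. Apoa4, another chylomicron protein and no member, read 198, 5.42 and 509, then 5.91, 166 and 2.92. Of the 29 other measured gut genes, 5 had the same 3 arrays on top (Apoa4, the brush border proteases Mep1a and Mep1b, the retinol carrier Rbp2 and the epithelial factor Elf3) and 24 did not. Of the 39 other hepatocyte genes, 3 did (Serpinc1, Apoc2 and Otc) and 36 did not. Most of these signals lie near or under 88.2.

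**Figure D3:**
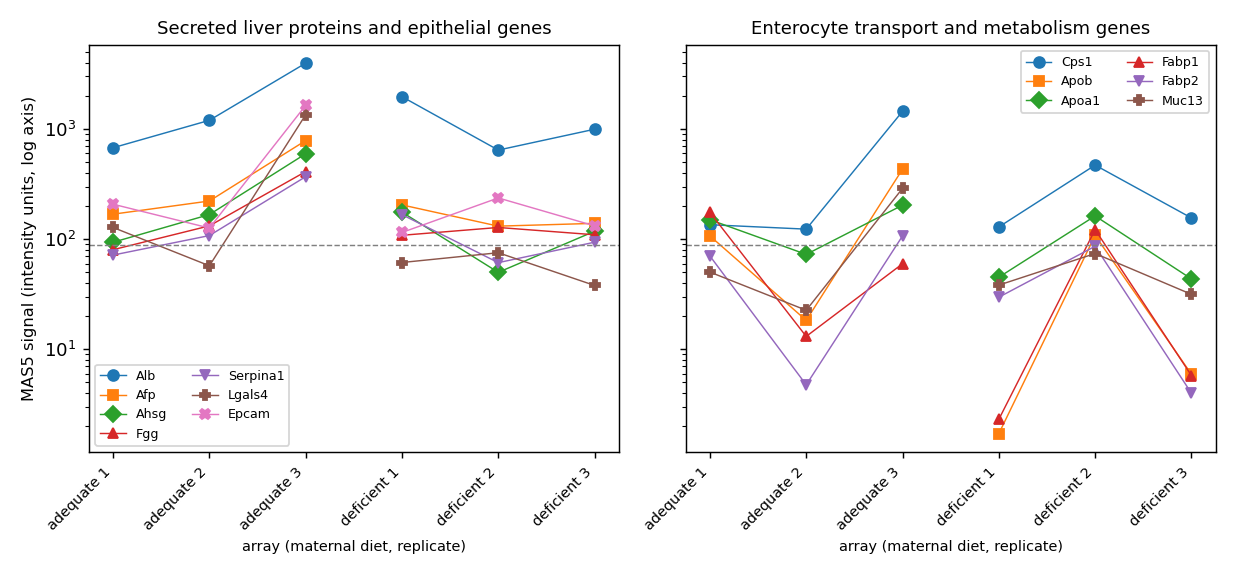
MAS5 signal (log axis, intensity units) on the 6 arrays for secreted liver proteins with Lgals4 and Epcam (left) and for enterocyte transport and metabolism genes with Muc13 (right); lines only join arrays of 1 diet, and the dashed line is the testing limit of 88.2. Left, adequate array 3 is the highest for every gene shown. Right, adequate arrays 1 and 3 and deficient array 2 are the highest for every gene drawn but Cps1, whose adequate array 1 read 135. Apob is drawn by its second probe set, as its leading one lacks this order. Apoa2, Apoc3, Vil1, Krt20 and Anpep, which also lack it, are not drawn.

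Cps1, which makes carbamoyl phosphate for the urea cycle in hepatocytes and newborn enterocytes, read 135, 123 and 1446 on the adequate and 129, 469.8 and 156 on the deficient arrays. Its second, dim probe set had 13.8, 11.1 and 145, then 55.7, 29.3 and 38.2, and so put adequate array 3 on top but not deficient array 2 second. The high density lipoprotein gene Apoa2 read 20.0, 16.1 and 44.3, then 34.6, 3.95 and 3.61. Apoc3, whose product inhibits lipoprotein lipase, read 95.9, 91.7 and 171, then 12.7, 35.2 and 93.2. Both were too dim to test and had adequate array 3 on top, with different orders among the deficient arrays.

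Within the deficient group liver and gut genes differed in which array was highest. Deficient array 1 was the highest of the 3 for 10 of 16 liver genes and 4 of 16 gut genes, against 37.5% of all probe sets. Deficient array 2 was the highest for 5 liver and 11 gut genes, against 27.4%. Deficient array 3 was the highest for 1 gene of each kind, against 35.1%. Of these genes 7 of the liver and 8 of the gut were too dim to test, and the order of dim signals varies strongly. The difference between liver and gut was not tested. Deficient arrays 1 and 2 also had hybridisation controls at 7.19 and 10.1 times the adequate mean, against 0.754 to 1.18 on the other 4 arrays, and beta-actin 3′ over 5′ ratios of 7.56 and 6.80, against 2.35 to 4.81. The part of these measures in the order was not tested. Adequate array 3 itself had control and actin values of 1.12 and 2.58, inside the range of the other adequate arrays.

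Markers of other tissues were read in the same way on adequate array 3. The summed signal of the 16 liver members was 9666 there, against 1953 and 2687 on the other adequate arrays and 2176 to 3528 on the deficient arrays. For the 16 gut members it was 7162, against 2238 and 1699 and against 1423 to 2000.5. For the 10 smooth muscle genes of the bowel wall it was 99013, against 81476 and 97990 in the adequate group, and deficient arrays 1 and 2 were higher, at 152020 and 163080. The genes of that list differed. Actg2, Myh11, Tagln, Mylk and, by less, Cnn1 were highest on deficient arrays 1 and 2. Des (4946 and 3961) and Smtn (1809 and 1441) were lowest there, and Lmod1, Synm and Acta2 showed neither. For the 10 measured enteric nerve and glia genes the sum was 19999.8 on adequate array 3, within the adequate range of 19983 to 21311. For the 8 measured erythroid genes, which would mark blood-forming fetal liver, the sum was almost all the globin Hbb. Hbb read 19797, 20021.5 and 18699, then 32957, 34574 and 19495. Without Hbb the erythroid sum was 1339 on adequate array 3, between 2189 on adequate array 1 and 1246 on adequate array 2, and it was 1287, 1096 and 1260.4 on the deficient arrays. In the pancreas list, where 14 of 16 measured genes were too dim to test, it was 719, against 491 to 552 elsewhere. The elastase Cela1 in that list read 166, 106 and 329, then 91.0, 25.9 and 148. Krt8 and Krt18, keratins of simple epithelia and mesothelium, were also highest on this array, while Krt7 and Krt19 were not. The summed mesothelium list was 10859 there, against 9163 to 12337 on the other 5 arrays.

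As a check of the tissue, the fat cell genes Fabp4 (1581 to 2821), Lpl (959.6 to 1826) and Aoc3 (2186 to 3128) were bright on every array. Adipoq (11.1 to 47.8), Plin1 (4.31 to 40.8) and Cidec (2.05 to 8.20), which mark mature fat cells, stayed under 88.2 on all 6 arrays. The summed fat cell list was 9469 on adequate array 3 and 7442 to 10184 on the others. In bulk tissue a larger number of cells of a type and more RNA per cell cannot be told apart, and the source of the liver and gut signal was not tested.

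The diet comparison asked whether these transcripts differed between offspring of deficient and adequate dams. By limma over all 18625 probe sets, with Benjamini-Hochberg adjustment at 0.05, no member passed, nor did any other probe set (0 of 18625, 0.0%), with 2647 at an unadjusted p under 0.05. Without deficient array 3 the same fit called 3618 probe sets, 19.4% of all, and 0 member genes. Of the 32 measured members, 17 genes had a probe set bright enough to test, 9 of the liver and 8 of the gut. Several of these passed that filter through adequate array 3, so their number carries no weight of its own. All 17 had a lower mean in the deficient group, where 55.3% of all tested probe sets did. The median log2 change was -0.51 over the 9 liver genes and -0.56 over the 8 gut genes, against -0.05 over all tested probe sets. Over all 32 measured genes, tested or not, 31 were lower and the median was -0.59, against a median of 0.018 over all 31042 probe sets. The share lower among all 31042 was not counted. In none of the 17 tested genes did the groups separate without overlap in either direction, where 10.8% of tested probe sets were lower and 6.55% higher without overlap. Nor did they in the 15 untested genes, for which no share over all probe sets was counted.

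Among the 17 tested genes the largest change was that of Lgals4, from a log2 signal of 7.74 ± 2.37 in the adequate group (SD, n = 3) to 5.81 ± 0.51 in the deficient group (SD, n = 3), with a limma adjusted p of 0.355. Epcam was at 8.45 ± 1.96 and 7.26 ± 0.55 (SD, n = 3 each), with a limma adjusted p of 0.446. Afp was at 8.27 ± 1.18 and 7.28 ± 0.35 (SD, n = 3 each), with a limma adjusted p of 0.363. In these genes the spread among the adequate arrays was as large as the difference between the groups or larger. Anpep, whose adequate arrays lay close together, went from 9.46 ± 0.29 to 8.93 ± 0.33 (SD, n = 3 each), a log2 change of -0.53 ± 0.22 (SE). It was the only member lower at an unadjusted p under 0.05, against 8.18% of all tested probe sets, and had a limma adjusted p of 0.344. No member was higher at that p, against 6.03%. The unadjusted limma p of Anpep was 0.0367 and moved to 0.0596 after quantile normalization, 0.0847 without adequate array 1, 0.151 without adequate array 3 and 0.151 without deficient array 2. The deficient value of 575 on array 3 and the adequate value of 572 on array 2 overlapped. With array weights in the fit, Anpep had a log2 change of -0.69 and a limma adjusted p of 0.0334, in a fit that called 18.6% of all probe sets.

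Leaving out adequate array 3 changed the picture. Of the same 17 genes, whatever the filter then said, 9 were lower and 8 higher in the deficient group, with a median log2 change of -0.080, and of all 32 measured genes 16 were lower and 16 higher. This count was chosen after seeing the data. With the filter set again on the remaining arrays, 13 member genes stayed above the filter, 6 of them lower and 7 higher in the deficient group, and their median log2 change was 0.08, against -0.05 over all tested probe sets. The liver median became 0.16 and the gut median -0.16. Alb went from -0.45 to 0.26, Serpina1 from -0.52 to 0.17, Fgg from -0.51 to 0.16, Cps1 from -0.45 to 0.71 and Cdx2 from -0.47 to 0.08, and no member passed the adjusted threshold. Ttr and Hp also turned, to 0.09 and 0.21. Afp, Ahsg, Epcam, Anpep, Tff3 and Chga were still lower, at -0.32, -0.31, -0.08, -0.39, -0.23 and -0.16. Lgals4, Cdh1, Cdh17 and Apoa1 fell under the filter without this array, with log2 changes of -0.61, -0.38, 0.54 and -0.61 there. Leaving out adequate array 1 or adequate array 2 moved the other way, with medians of -1.01 and -0.94. By limma, 5 of 17 and 6 of 18 tested member genes were then lower at an unadjusted p under 0.05. The shares of all probe sets were 2.62% and 6.97%, and 0 members passed the adjusted threshold. Both fits keep adequate array 3, and the members were chosen in part on these signals, so these counts are a description. Without deficient array 2 no member was lower at that unadjusted p by limma, against 2.81% of all probe sets.

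**Figure D4:**
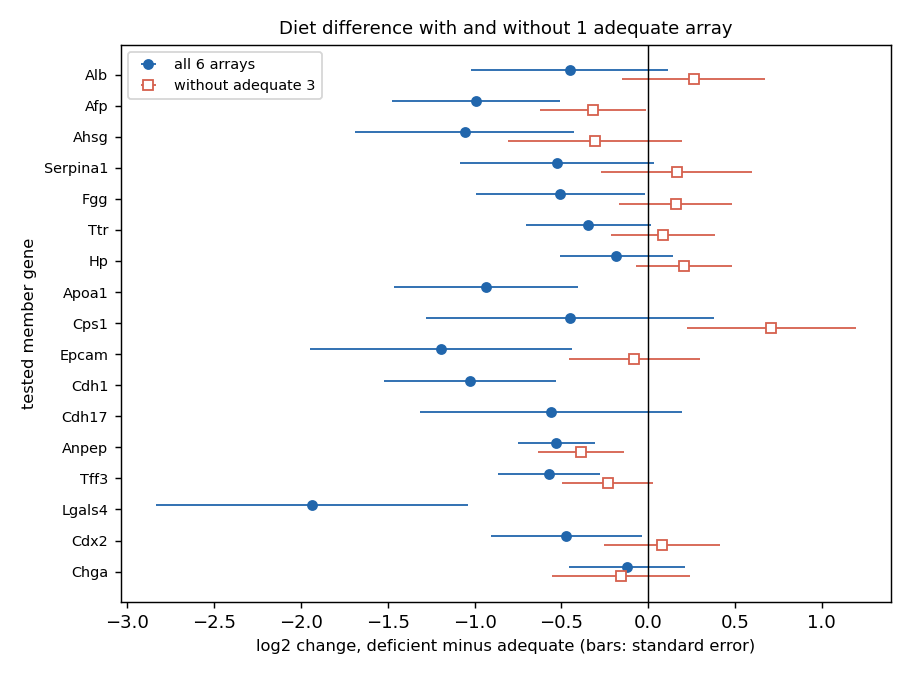
Log2 change, deficient minus adequate, with its standard error (bars) for the 17 tested member genes, fitted on all 6 arrays (filled circles) and without adequate array 3 (open squares, absent for the 4 genes that then lay under the filter). All circles lie below 0, while 7 of the 13 squares lie above 0.

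Without the pair of deficient arrays that stood apart in their controls, 19 member genes were bright enough to test and all 19 were lower, with a median of -0.82, against 0.0014 over all tested probe sets. This fit has only deficient array 3 in its group, so it assumes that the lone array varies like the rest. It keeps adequate array 3 in the other group, and the members were chosen in part on these signals. The shared direction is therefore a description and no support for a diet difference. The share lower among all probe sets was not counted for this fit. Apoa1 had a log2 change of -1.58 there and Hp one of -0.12.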

How the data were processed

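RNA of mesenterial fat was labelled with biotin and read on 6 Affymetrix rat expression arrays, per the labels' protocols. The values the authors deposited are intensity signals on a linear scale, made with MAS5 in Affymetrix Expression Console per the submitters' processing notes. How background, detection and scaling were set is not given in the sources used here. The 2% trimmed mean was 500.0 on every array, so a change in total RNA cannot be seen. All 6 columns differed.

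After 57 control probe sets were set aside, 31042 signals were log2 transformed without an offset. Those with a mean log2 signal under the 40th percentile (6.46) were not tested, leaving 18625. Groups came from the labels. Deficient minus adequate was fitted with limma 3.58.1 in R 4.3.3, using lmFit and eBayes with a variance trend, two-sided, and Benjamini-Hochberg adjustment over all 18625. The fit was checked on simulated data. Matplotlib 3.10.9 drew the figures.

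The annotation gave a single symbol to 20826 probe sets, more than 1 to 436 and no symbol to 9780. The members, lists and tests were chosen with earlier results of these data known. A gene's leading probe set is the brightest tested one, or the brightest if none was tested. Beside members, the rule allowed up to 3 genes of each marker list by smallest unadjusted p and 10 genes by their gap on the array highest for most members. Otc, Itih3, Hnf4a, Fah, Arg1, Tat, Apoa4, Mep1a, Mep1b, Rbp2, Elf3, Serpinc1, Krt19 and the fat cell genes fall outside that rule and were named after their values were seen. So do the smooth muscle genes other than Mylk, Myh11 and Tagln. Alternatives were 2 other normalizations (quantile, median centring), an offset of 50 signal units, no filter or one at the 60th percentile, a replicate block, omission of each array, the mean over a gene's probe sets, no variance trend, and array weights. Omitting deficient arrays 1 and 2 together, and counting the same genes without adequate array 3, were chosen after seeing the data. Numbers shared between groups were not taken as pairs: same-numbered arrays' deviations correlated at 0.11, 0.15 and 0.01.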

Additional observations from a re-analysis of the deposited data

How the results depend on the processing

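With limma, 0 probe sets passed the adjusted threshold in the reported fit. The count was 3462 with array weights and 0 to 3618 with 1 array left out, 3618 without deficient array 3. Member genes lower at an unadjusted limma p under 0.05 numbered 1, against 8.18% of all tested probe sets. They numbered 2 with quantile normalization, median centring or no filter, against 6.96%, 7.26% and 5.74%. With 1 array left out they numbered 0 to 6. The number was 5 without adequate array 1, against 2.62%, and 6 without adequate array 2, against 6.97%. It was 0 without adequate array 3 or deficient array 2, against 3.68% and 2.81%. Without deficient array 1 or deficient array 3 it was 1, against 5.58% and 20.5%. Members were chosen in part on these signals, so the counts are a description. With the replicate number as a block, 0 probe sets passed and 1 member (Anpep) was lower at that p, against 9.95% of all tested probe sets. The replicate numbers were not taken as pairs.

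Without a filter, 219 probe sets, 22 of them members, were highest on adequate array 3 by over 1 log2 unit. With the filter at the 60th percentile, 3 member genes were left, so that 3 were highest on this array. Of them, 1 (Alb) was so by over 1 unit, and its 2 probe sets were the only such ones among the 12417 tested. With 1 array left out, the probe sets of any gene in that count ranged from 22 to 32. Members were chosen in part on these signals, so their share in these counts is no support for the pattern.

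Medians over tested members are log2 deviations from the adequate mean. In the reported setting they were -0.26, -0.72 and -0.60 for liver and -0.44, -0.59 and -0.995 for gut on deficient arrays 1, 2 and 3. At the 60th percentile Alb was the only liver gene left, at 0.41 on deficient array 1 and -1.20 on deficient array 2. Without a filter the liver median on deficient array 2 was -1.13. For gut only Anpep and Tff3 were left at the 60th percentile, with -0.56 on deficient array 3. With 1 array left out, liver ranged from -0.38 to 0.30, -1.58 to -0.39 and -1.13 to 0.12 on deficient arrays 1, 2 and 3. Gut ranged from -0.91 to -0.25, -1.03 to 0.43 and -1.50 to -0.29.

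All 17 tested members were lower in the deficient group, and 9 of the same 17 without adequate array 3. Of 252 alternative values for single members, 240 kept their direction and side of the threshold, and 11 changed sign. A gene whose probe set left the filter in a setting has no value among the 252. Without adequate array 3 these were Lgals4, Cdh1 and Apoa1, which stayed lower, and Cdh17, which went from -0.56 to 0.54. Array weights gave 0.062 for Cps1 and 0.25 for Chga. With 1 array left out, the log2 change ranged from -1.01 to 0.26 for Alb, -1.02 to 0.17 for Serpina1, -1.02 to 0.16 for Fgg, -0.60 to 0.087 for Ttr, -0.43 to 0.21 for Hp, -1.06 to 0.71 for Cps1, -0.81 to 0.081 for Cdx2 and -0.46 to 0.13 for Chga. Each of these changed sign without adequate array 3 except Chga, which did so without adequate array 2 or deficient array 3. With 3 arrays a group and dim probe sets near the filter, small differences could not be detected.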
